A study of Mus musculus with 246 samples.

Results

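Bdnf, Ntf3, Ntrk2, Ntrk3, Ngfr and Vgf were followed across 6 brain regions of adult male mice. They were chosen by name as 2 neurotrophins, 3 of their receptors and a secreted neuropeptide precursor, and they are 6 of the 56691 genes in the count table. All 6 passed the filter on low counts in every region. The mice were outbred CD1 males, and every library is RNA from the bilateral tissue punches of 1 region of 1 mouse. Each region gave 41 libraries from the same 41 mice. Cortex was sampled in the mPFC (medial prefrontal) and the ACC (anterior cingulate), and the other regions were the vHipp (ventral hippocampus), the DMT (dorsomedial thalamus), the BLA (basolateral amygdala) and the Nacc (nucleus accumbens).

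Control mice whose dam received the empty phospholipid gel formed the group Ctrl_Veh. Mice reared with limited bedding and nesting in the first postnatal days (early life adversity, ELA) formed ELA_Veh when the dam received the empty gel. They formed ELA_SAFit2 when the gel held SAFit2, a selective inhibitor of the glucocorticoid receptor co-chaperone FKBP51. The gel was given once to the dam under the skin, so that the pups met the compound through the milk. No control group received SAFit2, so its effect without adversity could not be compared. Mice of the 3 conditions lived together in mixed groups. The set NoInteraction held 7 mice of each condition. The set SocialInteraction held 6 Ctrl_Veh, 7 ELA_Veh and 7 ELA_SAFit2 mice that had spent 10 minutes with an unfamiliar mouse before tissue was taken. Neighbouring mouse numbers form runs that each belong to 1 set, so the social interaction and anything else that differed between these runs cannot be told apart. The tests of social interaction hold no term for the runs. Their standard errors and p-values therefore treat the mice of a run as independent of each other. The labels name no litter.

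The table gives estimated counts per gene. Totals lay between 20804247 and 43351424 per library, with medians of 29129085 in NoInteraction and 28458864 in SocialInteraction. Levels are given here as CPM, counts set to a common library size, with scaling between libraries by the trimmed mean of M-values (TMM). They are not divided by gene length, so they compare a gene between samples and not one gene with another. In genes that differ between individual mice, 12 Nacc libraries resembled a mouse other than their labelled one. For 8 of the 12 that mouse belonged to the other set, and for 7 to another condition. Correlation with the labelled mouse ran from -0.21 to 0.22, against 0.85 to 0.97 with the resembled mouse. The resembled mice were the same 12 mice, each resembled by 1 of these libraries. The labelled set and condition of these Nacc libraries are therefore in doubt. Whether the libraries were exchanged among these mice was not tested, and no results under exchanged labels are given. Further, 1 ACC library matched its own mouse and another about equally. Measured over all genes, 3 libraries stood apart from their group, namely ACC of Ctrl_Veh mouse 89 and DMT of ELA_SAFit2 mouse 31, both SocialInteraction, and Nacc of ELA_Veh mouse 69, NoInteraction. All libraries were kept under their labels, and the main results that touch them are also given without them.

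Neurotrophins are secreted growth factors that neurons use to regulate survival, branching and synaptic strength. Brain-derived neurotrophic factor, the product of Bdnf, signals through the receptor kinase TrkB, encoded by Ntrk2, and neurotrophin-3, the product of Ntf3, through TrkC, encoded by Ntrk3. The p75 receptor, encoded by Ngfr, binds all neurotrophins and their uncleaved precursors and is abundant on cholinergic neurons of the basal forebrain. Vgf encodes a secretory granule protein that is cut into several peptides, and its transcription responds to neurotrophins and to neuronal activity. Bdnf is likewise a classical activity-regulated gene, transcribed from several promoters that are each spliced to the same coding exon.

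The windows below carry the start sites of the ligand genes, and they are shown because Bdnf is the member with the largest called response to social interaction and is transcribed from more than 1 start. RefSeq start sites on GRCm38.p6 gave 7 windows of 300 bases for Bdnf, 2 for Ntf3, 1 for Ntrk2 and 1 for Ngfr, each covering 250 bases before to 50 after the start. Vgf and Ntrk3 had no window in the table used. The windows were searched on both strands for the full cAMP response element TGACGTCA, its shorter form TGACG, which the full element contains, the AP-1 motif TGANTCA and the E-box CACGTG. Matches were found in 3 of the 11 windows, which are printed 5′ to 3′ on the gene's strand, with the match in capitals.

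Bdnf window 2, chr2:109676782-109677081, plus strand: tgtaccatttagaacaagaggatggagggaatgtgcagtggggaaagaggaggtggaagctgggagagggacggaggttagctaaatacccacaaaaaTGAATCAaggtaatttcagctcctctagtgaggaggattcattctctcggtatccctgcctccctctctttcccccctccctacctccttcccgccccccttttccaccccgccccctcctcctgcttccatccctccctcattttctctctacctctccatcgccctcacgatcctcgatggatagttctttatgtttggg
Bdnf window 3, chr2:109692186-109692485, plus strand: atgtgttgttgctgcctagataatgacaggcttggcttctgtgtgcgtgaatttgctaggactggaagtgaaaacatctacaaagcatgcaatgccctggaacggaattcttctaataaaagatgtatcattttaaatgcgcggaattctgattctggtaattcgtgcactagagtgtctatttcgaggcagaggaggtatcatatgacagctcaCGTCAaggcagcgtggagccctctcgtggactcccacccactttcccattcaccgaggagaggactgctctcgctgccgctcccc
Ntf3 window 1, chr6:126166695-126166994, minus strand: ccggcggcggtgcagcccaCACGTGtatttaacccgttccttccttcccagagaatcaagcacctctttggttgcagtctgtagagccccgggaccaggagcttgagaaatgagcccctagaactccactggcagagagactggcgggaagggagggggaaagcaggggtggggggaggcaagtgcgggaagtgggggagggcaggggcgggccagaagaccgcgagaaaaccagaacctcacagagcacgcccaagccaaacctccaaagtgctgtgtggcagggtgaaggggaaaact

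The second Bdnf window holds an AP-1 motif whose first base lies at -152 from the start, the third holds the shorter cAMP response element, read on the other strand, at -35, and the first Ntf3 window holds an E-box at -231. Of 32851 windows of the same length over all genes, 1.79% held the full cAMP response element, 20.8% the shorter form, 7.81% the AP-1 motif and 7.15% the E-box. The counts are per gene, so they do not tell which Bdnf start was used, nor the TrkB and TrkC forms with a kinase from the truncated ones. On GRCm38, Bdnf (ENSMUSG00000048482) spans chr2:109674700-109727007 and Ntf3 (ENSMUSG00000049107) chr6:126101412-126166910. The receptor genes are Ntrk2 (ENSMUSG00000055254) at chr13:58806569-59133970, Ntrk3 (ENSMUSG00000059146) at chr7:78175959-78738012 and Ngfr (ENSMUSG00000000120) at chr11:95568818-95587735. Vgf (ENSMUSG00000037428) lies at chr5:137026392-137033351. Bdnf, Ntrk2 and Ntrk3 overlap antisense transcripts in the annotation. The library kit kept the strand, but how the counting used it is not given in the sources used here.

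The neurotrophin genes differed strongly between regions. Over the 41 libraries of a region, Bdnf lay between 40.2 and 65.4 CPM in the vHipp (median 48.3), between 19.1 and 44.8 in the ACC (29.8) and between 18 and 45.9 in the mPFC (28.1). It lay between 10.2 and 29.1 CPM in the DMT (16.5), between 6.37 and 23.8 in the BLA (15.1) and between 0.448 and 20.7 in the Nacc (4.49). The vHipp was above the mPFC, ACC, BLA and DMT in 41 of 41 mice. In edgeR's quasi-likelihood test over the libraries of all regions, Bdnf in the vHipp exceeded the mean of the other 5 regions by 1.58 on the log2 scale (SE 0.074, adjusted p = 3.5e-54), and in the Nacc it fell below that mean by 2.16 (SE 0.10, adjusted p = 4.1e-54). The neighbours mPFC and ACC did not differ beyond their spread (log2 difference -0.062, adjusted p = 0.69).

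Ntf3 was a gene of the vHipp, where it lay between 5.06 and 13.2 CPM with a median of 8.3. Median levels elsewhere were 1.27 CPM (mPFC), 0.619 (ACC), 0.532 (BLA), 0.393 (DMT) and 0.248 (Nacc). Every vHipp library exceeded every library of the other 5 regions, whose highest value was 2.98 CPM in the mPFC. The vHipp exceeded the mean of the others by 3.90 on the log2 scale (SE 0.077, adjusted p = 7.2e-119), the largest regional difference among the members. In the Nacc the values rested on 1 to 26 reads a library, and the neighbours ACC and BLA (adjusted p = 0.22) and BLA and DMT (adjusted p = 0.16) did not differ beyond their spread.

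The TrkB and TrkC genes varied less between regions. Ntrk2 was highest in the mPFC, at 780 to 950 CPM with a median of 854, and lowest in the vHipp, at 537 to 700 with a median of 618. Its order ran opposite to that of Bdnf at the vHipp, the region highest in the ligand and lowest in this receptor. The mPFC exceeded the mean of the others by 0.30 on the log2 scale (SE 0.016, adjusted p = 4.1e-46), and the vHipp fell below it by 0.28 (SE 0.016, adjusted p = 1.9e-40). Between these lay the DMT (median 766 CPM), the ACC (764), the BLA (710) and the Nacc (647), and the DMT and ACC did not differ beyond their spread (adjusted p = 0.83).

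Ntrk3 was lowest in the DMT, at 91.8 to 152 CPM with a median of 130, and no DMT library reached the lowest library of another region, 156 CPM in the ACC. It was highest in the vHipp, at 262 to 349 CPM with a median of 313. The DMT fell below the mean of the other regions by 1.01 on the log2 scale (SE 0.025, adjusted p = 1.4e-101) and the vHipp exceeded it by 0.50 (SE 0.022, adjusted p = 1.2e-58). Between these lay the mPFC (median 265 CPM), the ACC (261), the Nacc (236) and the BLA (220), and the mPFC and ACC did not differ beyond their spread (adjusted p = 0.11).

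Ngfr, the p75 receptor, was a gene of the Nacc and BLA. It lay between 1.39 and 73.2 CPM in the Nacc (median 5.57) and between 1.76 and 20 in the BLA (5.98), against medians of 1.49 in the vHipp, 1.05 in the ACC, 1.02 in the DMT and 0.993 in the mPFC. In the Nacc its spread between mice was wide, with a coefficient of variation inside a group of mice of 65.7% to 134%, against 54% to 94.8% for Bdnf and 3.88% to 9.07% for Ntrk2 there. Over the 29 matched Nacc libraries its highest value was 43.6 CPM and its median 5.9. The Nacc exceeded the mean of the others by 2.78 on the log2 scale (SE 0.12, adjusted p = 5.3e-59) and the BLA by 1.90 (SE 0.13, adjusted p = 2.7e-34). The Nacc was above the BLA in the fit (log2 0.73, adjusted p = 8.1e-05), although its median was lower, and among the 29 mice with a matched Nacc library it was above in 17. No pair among mPFC, ACC and DMT differed beyond the spread.

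Vgf was highest in the Nacc and lowest in the vHipp. It lay between 173 and 358 CPM in the Nacc (median 240), between 159 and 292 in the BLA (223), between 165 and 302 in the ACC (222) and between 123 and 301 in the mPFC (194). It was lower in the DMT, at 116 to 205 (median 156), and in the vHipp, at 85.2 to 160 (127). The vHipp fell below the mean of the others by 0.73 on the log2 scale (SE 0.036, adjusted p = 3e-50), so the precursor was lowest where Bdnf was highest. The Nacc exceeded the mean by 0.43 (SE 0.033, adjusted p = 2.5e-28), and the ACC and BLA did not differ beyond their spread (adjusted p = 0.91).

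Of the 36 tests of a member in 1 region against the mean of the others, 34 passed an adjusted p under 0.05, and of 90 pairs of regions 81 did. Over all protein-coding genes tested, 75.7% of the first kind of test and 74.9% of the second passed, so a difference between regions is the usual state of a gene in these data. Vgf in the mPFC (log2 0.024, adjusted p = 0.55) and Ntrk2 in the BLA (log2 -0.024, adjusted p = 0.18) did not pass. With the 12 mismatched Nacc libraries left out 32 passed, and Ntrk3 in the Nacc (log2 0.052, adjusted p = 0.069) and BLA (log2 -0.043, adjusted p = 0.082) no longer did. Library names follow the regions almost throughout, and most mPFC names lie in a run of numbers apart from the other regions. Whatever goes with the order of the names and the region therefore cannot be told apart.

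**Figure D1:**
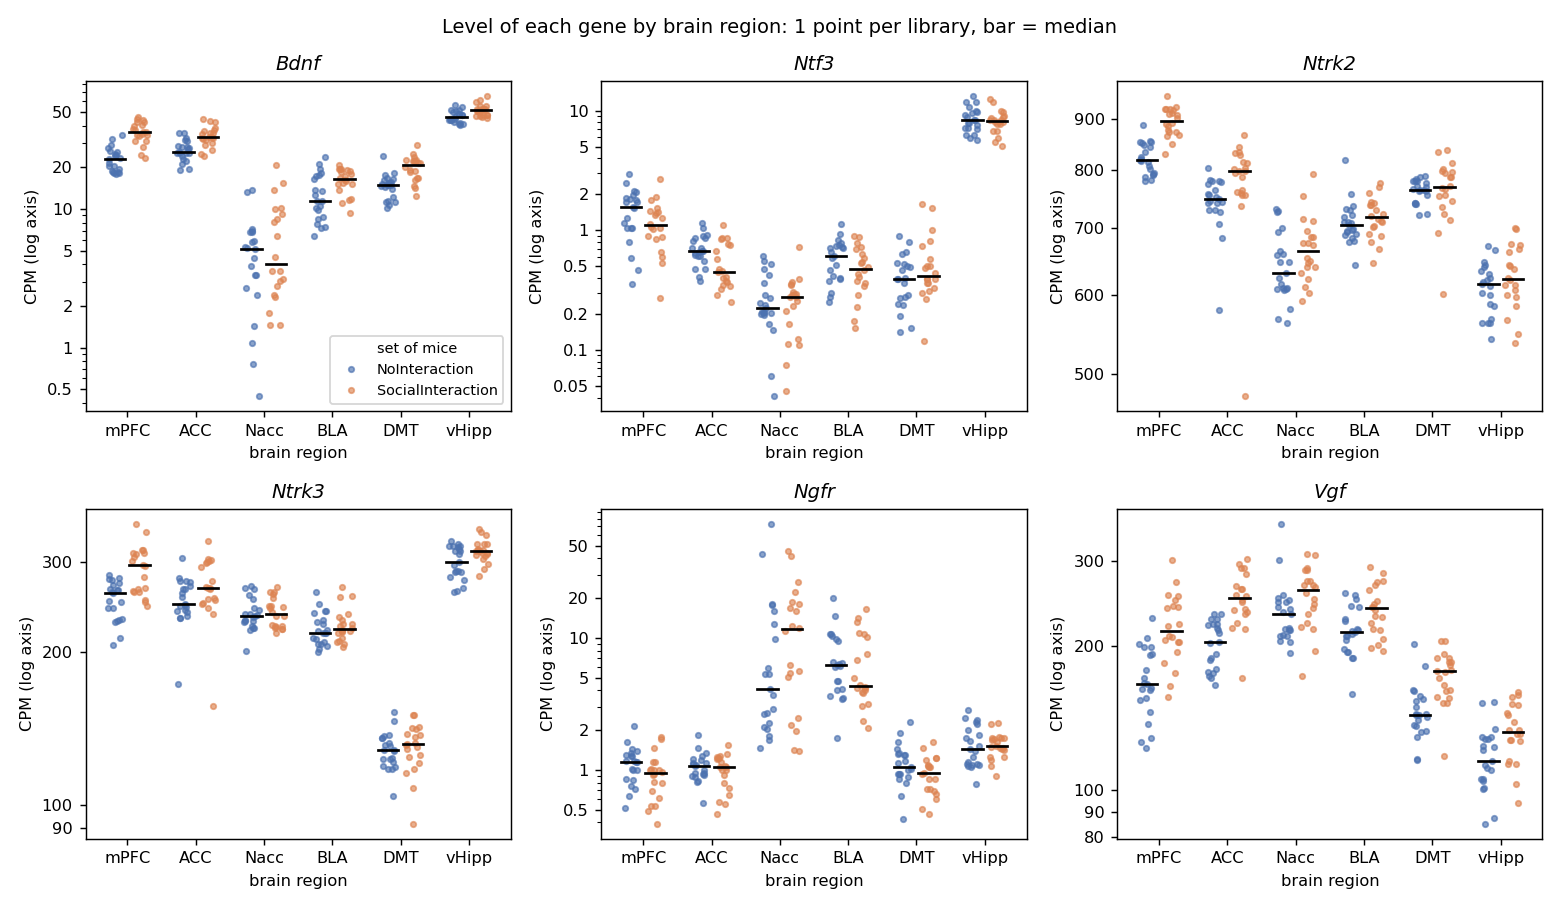
Level of each of the 6 genes in CPM (log axis) by brain region, with 1 point per library, NoInteraction in blue, SocialInteraction in orange and bars at the medians. Ntf3 in the vHipp stands above every other region, Ntrk3 in the DMT below every other, and Ngfr in the Nacc runs from 1.39 to 73.2 CPM.

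The labelled regions were checked against marker genes. Thalamic markers summed to 1407 to 2411 CPM in the DMT and to no more than 345 in any other region, and dentate gyrus markers to 188 to 569 CPM in the vHipp and 149 to 363 in the DMT. Striatal markers had a median of 2730 CPM in the Nacc, but also 1048 in the BLA. The 2 markers of the BLA, Rspo2 and Etv1, had a median of 231 CPM there against 193 in the ACC, so these genes set the region only slightly apart, and choroid plexus markers ran from 7.42 to 5524 CPM in the BLA libraries. Excitatory markers ran from 880 to 3415 CPM in the Nacc, and 3 of the 4 cholinergic markers had a median under 0.5 CPM in the mPFC and ACC and all 4 in the vHipp. How much of a regional difference these mixtures carry was not tested. In bulk tissue, fewer cells of a type and less RNA per cell cannot be told apart.

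Members were then compared with marker lists inside the groups of mice. Deviations of a library from its group mean, on log2(CPM + 0.1), were correlated over the 41 libraries of a region, in 576 relations of 6 members, 6 regions and 16 marker lists, and 160 had an adjusted p under 0.05 while the others did not. The share over all genes was not computed. Each p is from a permutation test with 100000 resamples and Benjamini-Hochberg adjustment over the 576, and 1e-05 is the smallest p these permutations give. A library's scaling and tissue mixture are shared by both measures.

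The receptor Ngfr followed the cholinergic markers Chat, Slc18a3, Slc5a7 and Lhx8 where it was high. In the Nacc Pearson's r was 0.84 and Spearman's rho 0.87 (p = 1e-05 for both, adjusted 2e-04 and 3e-04), with 0.87 without the 2 farthest libraries, 0.81 in NoInteraction and 0.87 in SocialInteraction. Over the 29 matched Nacc libraries r was 0.82 and rho 0.84 (permutation p = 1e-05 for both). In the BLA r was 0.78 and rho 0.83 (p = 1e-05 for both, adjusted 2e-04 and 3e-04), with 0.77 without the 2 farthest, 0.75 in NoInteraction and 0.83 in SocialInteraction. Summed cholinergic markers ran from 31.4 to 240 CPM in the Nacc and from 4.29 to 82 in the BLA. In the DMT they ran from 0.956 to 58.9 CPM (median 13.3), although Ngfr there had a median of only 1.02 CPM. Ngfr in the Nacc also ran against the excitatory markers (r = -0.79, rho = -0.76, p = 1e-05, adjusted 2e-04 and 3e-04; -0.75 without the 2 farthest, -0.77 and -0.83 in the sets), and r was -0.76 over the 29 matched libraries.

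Bdnf followed the summed markers of excitatory neurons in the BLA, Nacc and mPFC. Its relations to them in the ACC, DMT and vHipp are not given here. In the BLA r was 0.82 and rho 0.82 (p = 1e-05, adjusted 2e-04 and 3e-04), with 0.78 without the 2 farthest, 0.87 in NoInteraction and 0.74 in SocialInteraction. In the Nacc r was 0.75 and rho 0.83 (p = 1e-05, adjusted 2e-04 and 3e-04), with 0.85 without the 2 farthest, 0.63 and 0.94 in the 2 sets and 0.86 over the 29 matched libraries. Ntf3 in the vHipp followed the dentate gyrus markers, with r at 0.80 and rho at 0.79 (p = 1e-05, adjusted 2e-04 and 3e-04), 0.77 without the 2 farthest, 0.82 in NoInteraction and 0.80 in SocialInteraction. In the mPFC both Bdnf (r = 0.68, rho = 0.69, p = 2e-05, adjusted 0.00034 and 0.00044; 0.67 without the 2 farthest, 0.81 and 0.51 in the sets) and Vgf (r = 0.69, rho = 0.66, p = 1e-05, adjusted 2e-04 and 3e-04; 0.62 without the 2 farthest, 0.75 and 0.63 in the sets) followed the excitatory markers.

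**Figure D2:**
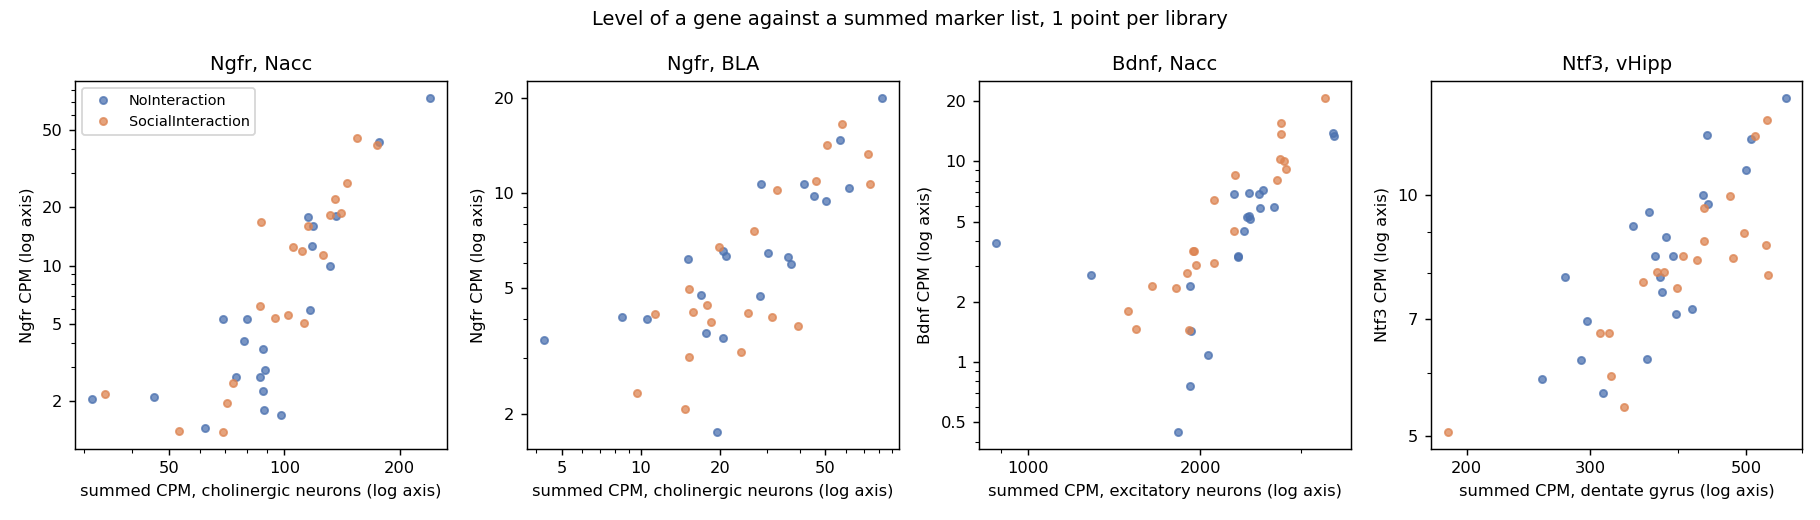
CPM of Ngfr in the Nacc and BLA, Bdnf in the Nacc and Ntf3 in the vHipp against the summed CPM of a marker list (cholinergic, cholinergic, excitatory and dentate gyrus), both axes log, 1 point per library, NoInteraction in blue and SocialInteraction in orange. In each panel the points of both sets rise together, and Ngfr in the Nacc reaches 73.2 CPM in the library highest on its axis.

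Next, the members were compared between mice taken after 10 minutes with an unfamiliar mouse and mice taken without, averaged over the 3 conditions. Bdnf rose in the mPFC, ACC and DMT, Vgf in the same 3 regions, and Ntrk2 and Ntrk3 in the mPFC. Ntf3 and Ngfr passed the test in no region. In all, 8 of 36 tests passed an adjusted p under 0.05 over all genes of the region, and all 8 were higher after social interaction.

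In the mPFC 4 of the 6 members were called, where 7.4% of all genes tested were. Bdnf there lay between 18 and 34 CPM without social interaction (median 22.9) and between 23.6 and 45.9 after it (36). Of the 20 mice after interaction, 20 were above the median of the others and 14 above their highest value, so the sets overlapped only in part. The log2 difference was 0.64 (SE 0.081, 1.56-fold, adjusted p = 1.7e-06). Vgf lay between 123 and 228 CPM without interaction (median 167) and between 156 and 301 after it (214), a log2 difference of 0.38 (SE 0.075, 1.3-fold, adjusted p = 0.0011), with 18 of 20 mice above the other set's median.

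The receptor changes in the mPFC were smaller. Ntrk2 lay between 780 and 888 CPM (median 819) without interaction and between 830 and 950 (897) after it, with 20 of 20 mice above the other set's median. The log2 difference was 0.12 (SE 0.018, 1.09-fold, adjusted p = 1.5e-05). Ntrk3 lay between 206 and 284 CPM (261) and between 245.8 and 357 (296), with 17 of 20 mice above that median and a log2 difference of 0.20 (SE 0.043, 1.15-fold, adjusted p = 0.0023).

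In the ACC both Bdnf and Vgf were called, against 4.15% of all genes. Bdnf lay between 19.1 and 35.6 CPM without interaction (median 26) and between 24.1 and 44.8 after it (33.1), a log2 difference of 0.34 (SE 0.071, 1.27-fold, adjusted p = 0.0036). Vgf lay between 165 and 233 CPM (203) and between 171 and 302 (251), a log2 difference of 0.31 (SE 0.051, 1.24-fold, adjusted p = 0.00024). For Vgf 15 of the 20 mice after interaction exceeded all 21 mice without it. Without the ACC library that stood apart, 7.62% of all genes were called, Ntrk2 passed as well (log2 0.10, SE 0.026, adjusted p = 0.013, against 0.066 and 0.43 with it), and Bdnf (0.34) and Vgf (0.29) still passed.

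In the DMT the same ligand and precursor were called, against 1.6% of all genes. Bdnf lay between 10.2 and 24.3 CPM without interaction (median 14.9) and between 12.3 and 29.1 after it (20.9), a log2 difference of 0.44 (SE 0.092, 1.36-fold, adjusted p = 0.006). Vgf lay between 116 and 202 CPM (144) and between 118 and 205 (177), a log2 difference of 0.24 (SE 0.057, 1.18-fold, adjusted p = 0.018). Without the DMT library that stood apart both were still called, at 0.43 (SE 0.094, adjusted p = 0.0086) and 0.22 (SE 0.055, adjusted p = 0.023). The ranges of the 2 sets overlapped widely. For each gene 2 mice after interaction lay above the highest without it. At the lower end, 6 (Bdnf) and 2 (Vgf) mice without interaction lay below the lowest after it. After interaction 17 of 20 (Bdnf) and 19 of 20 (Vgf) mice lay above the other median. Choroid plexus markers in the DMT had a median log2 difference of 1.08 over 4 genes, with 0 called, and their part in these results was not tested.

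No member passed in the BLA, vHipp or Nacc, where 1.49%, 1.21% and 0% of all genes did. Bdnf in the vHipp, its region of highest level, lay between 40.2 and 56 CPM (median 45.9) and between 45.6 and 65.4 (51.8), a log2 difference of 0.15 (SE 0.045, adjusted p = 0.086). DESeq2 called it (0.15, adjusted p = 0.044, with 1.96% of all genes called). In the BLA Bdnf lay between 6.37 and 23.8 CPM (11.5) and between 9.34 and 20.7 (16.6), with a log2 difference of 0.32 (SE 0.14, adjusted p = 0.25), and Vgf between 159 and 258 (213) and between 195 and 292 (239), with 0.14 (SE 0.047, adjusted p = 0.11). Vgf in the vHipp had a log2 difference of 0.18 (SE 0.066, adjusted p = 0.21).

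The Nacc values could not separate the sets. Bdnf lay between 0.448 and 13.7 CPM without interaction and between 1.45 and 20.7 after it, with a log2 difference of 0.37 and an SE of 0.34 (adjusted p = 1). With the 12 mismatched libraries left out it was 0.64 (SE 0.43, adjusted p = 0.86), and Vgf was 0.23 (SE 0.06, unadjusted p = 0.0007, adjusted p = 0.22) against 0.11 (SE 0.065, adjusted p = 1) with them. The test of edgeR called 0 genes there, with 391 of 15881 at an unadjusted p under 0.05.

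Ntf3 and Ngfr had differences of either sign, and none passed. The log2 difference of Ntf3 ran from -0.36 in the ACC (SE 0.17, adjusted p = 0.26) to 0.34 in the DMT (SE 0.23, adjusted p = 0.59), and in the vHipp, where it was high, it was -0.058 (SE 0.10, adjusted p = 0.88). Ngfr ran from -0.26 in the mPFC (SE 0.17, adjusted p = 0.42) and DMT (SE 0.15, adjusted p = 0.5) to 0.53 in the Nacc (SE 0.46, adjusted p = 1). A p above the threshold does not show that these genes were unaffected.

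**Figure D3:**
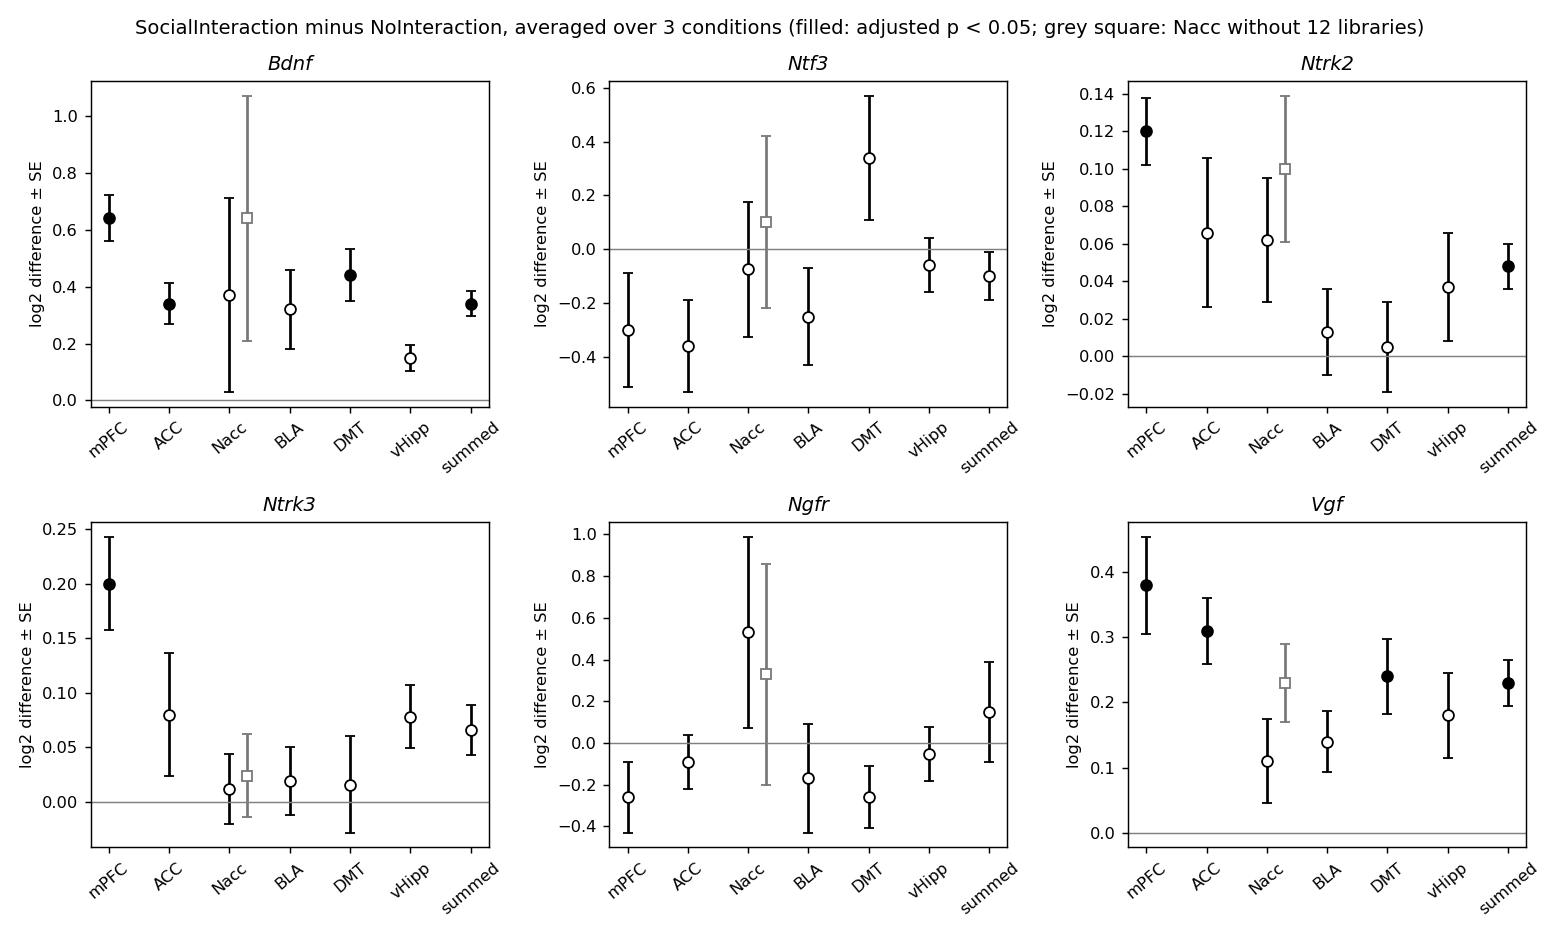
Log2 difference between SocialInteraction and NoInteraction mice, averaged over the 3 conditions, for each gene by region and with the regions of a mouse summed; error bars are standard errors, filled points had an adjusted p under 0.05, and the grey square is the Nacc without 12 libraries. Bdnf and Vgf are filled in the mPFC, ACC, DMT and the sum, Ntrk2 in the mPFC and the sum, Ntrk3 in the mPFC, and Ntf3 and Ngfr nowhere.

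When the counts of the 6 regions of a mouse were summed, 3 of 6 members rose, against 8.56% of all genes. The sum makes the mouse the unit, and not the run of mouse numbers. Bdnf differed by 0.34 (SE 0.045, adjusted p = 1.3e-05), Vgf by 0.23 (SE 0.035, adjusted p = 6.3e-05) and Ntrk2 by 0.048 (SE 0.012, adjusted p = 0.0087) on the log2 scale. Ntrk3 differed by 0.066 (SE 0.023, adjusted p = 0.068), and by 0.077 (adjusted p = 0.046) with the Nacc left out of the sum. Ngfr was at 0.15 with the Nacc (adjusted p = 0.79) and at -0.14 without it (adjusted p = 0.65).

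Whether the response was larger in 1 region than in the mean of the other 5 was tested directly. None of 36 tests passed in edgeR's test, with 6 at an unadjusted p under 0.05, against 0.0393% and 3.96% of all tests. The smallest p belonged to Ntrk3 in the mPFC, whose response exceeded that of the other regions by 0.16 on the log2 scale (SE 0.045, unadjusted p = 0.00058, adjusted p = 0.17). Ntrk2 (0.086, SE 0.032, adjusted p = 0.61), Vgf (0.18, SE 0.069, adjusted p = 0.64) and Bdnf (0.31, SE 0.16, adjusted p = 1) in the mPFC were also above the other regions. A response particular to the mPFC was therefore not shown.

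The response was next read inside each condition. Of 108 tests 4 passed, all higher in ELA_SAFit2 mice, against 0.0891% of all genes over the 18 comparisons. In the mPFC of ELA_SAFit2 mice, where 1.21% of all genes passed, Bdnf lay between 18 and 26.3 CPM without interaction (median 18.6) and between 31.2 and 45.9 after it (40), so the 2 groups of 7 did not overlap. The log2 difference was 0.91 (SE 0.14, 1.88-fold, adjusted p = 0.00028). The share of all genes whose groups did not overlap is not given here, so how unusual this is cannot be read. In Ctrl_Veh mice Bdnf lay between 20.4 and 28.8 (23.3) and between 24.6 and 42.2 (34.4), a difference of 0.55 (SE 0.14, adjusted p = 0.13), and in ELA_Veh mice between 18.4 and 34 (25.7) and between 23.6 and 44.9 (36), a difference of 0.46 (SE 0.14, adjusted p = 0.19).

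The 2 receptor kinase genes passed there too. Ntrk3 in ELA_SAFit2 mice rose by 0.32 (SE 0.073, adjusted p = 0.016), with values of 206 to 279 CPM (median 250) without and 266 to 357 (302) after interaction. Ntrk2 rose by 0.13 (SE 0.03, adjusted p = 0.014), from 780 to 856 CPM (791) to 850 to 922 (890). In Ctrl_Veh and ELA_Veh mice Ntrk2 differed by 0.11 (SE 0.031, adjusted p = 0.17) and 0.12 (SE 0.03, adjusted p = 0.095). The Ntrk2 values of the sets did not overlap in Ctrl_Veh mice, at 808 to 854 CPM without and 873 to 922 after interaction, whereas those in ELA_SAFit2 mice did. Here too no share of all genes without overlap is given.

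In the ACC of ELA_SAFit2 mice, where 0.07% of all genes passed, Vgf lay between 165 and 221 CPM (median 177) without and between 218 and 302 (249) after interaction, and rose by 0.46 (SE 0.087, adjusted p = 0.019). Vgf differed by 0.24 (SE 0.09, adjusted p = 0.27) in Ctrl_Veh and by 0.23 (SE 0.087, adjusted p = 0.29) in ELA_Veh mice. Bdnf in the ACC of ELA_SAFit2 mice lay between 19.1 and 28.7 CPM (24.1) and between 24.8 and 43.2 (35.1), a difference of 0.56 (SE 0.12, adjusted p = 0.051, or 0.033 without the ACC library that stood apart). DESeq2 called 9 of the 108 tests, all higher after interaction, and 2 of them were in the mPFC of other conditions, Bdnf in Ctrl_Veh (log2 0.55, adjusted p = 0.038) and Ntrk2 in ELA_Veh mice (log2 0.12, adjusted p = 0.013). The share of all genes that DESeq2 called in these comparisons is not given here, and the shares above are those of edgeR.

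That the 4 calls of edgeR fell in ELA_SAFit2 mice does not show that the response differed between conditions. Tested directly, 0 of 108 differences of response passed in edgeR's test, with 9 at an unadjusted p under 0.05, and DESeq2 also gave 0, with 9. Of all such tests, 0.00772% passed and 3.97% reached an unadjusted p under 0.05. The Bdnf response of ELA_SAFit2 exceeded that of ELA_Veh mice by 0.45 in the mPFC (SE 0.20, unadjusted p = 0.027, adjusted p = 1) and by 0.39 in the ACC (SE 0.17, unadjusted p = 0.028, adjusted p = 1). For Vgf in the BLA it was 0.35 (SE 0.11, unadjusted p = 0.0044, adjusted p = 0.98), where ELA_SAFit2 mice lay between 159 and 227 CPM (196) without and between 223 and 292 (261) after interaction, and ELA_Veh mice between 194 and 258 (242) and between 195 and 283 (231).

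**Figure D4:**
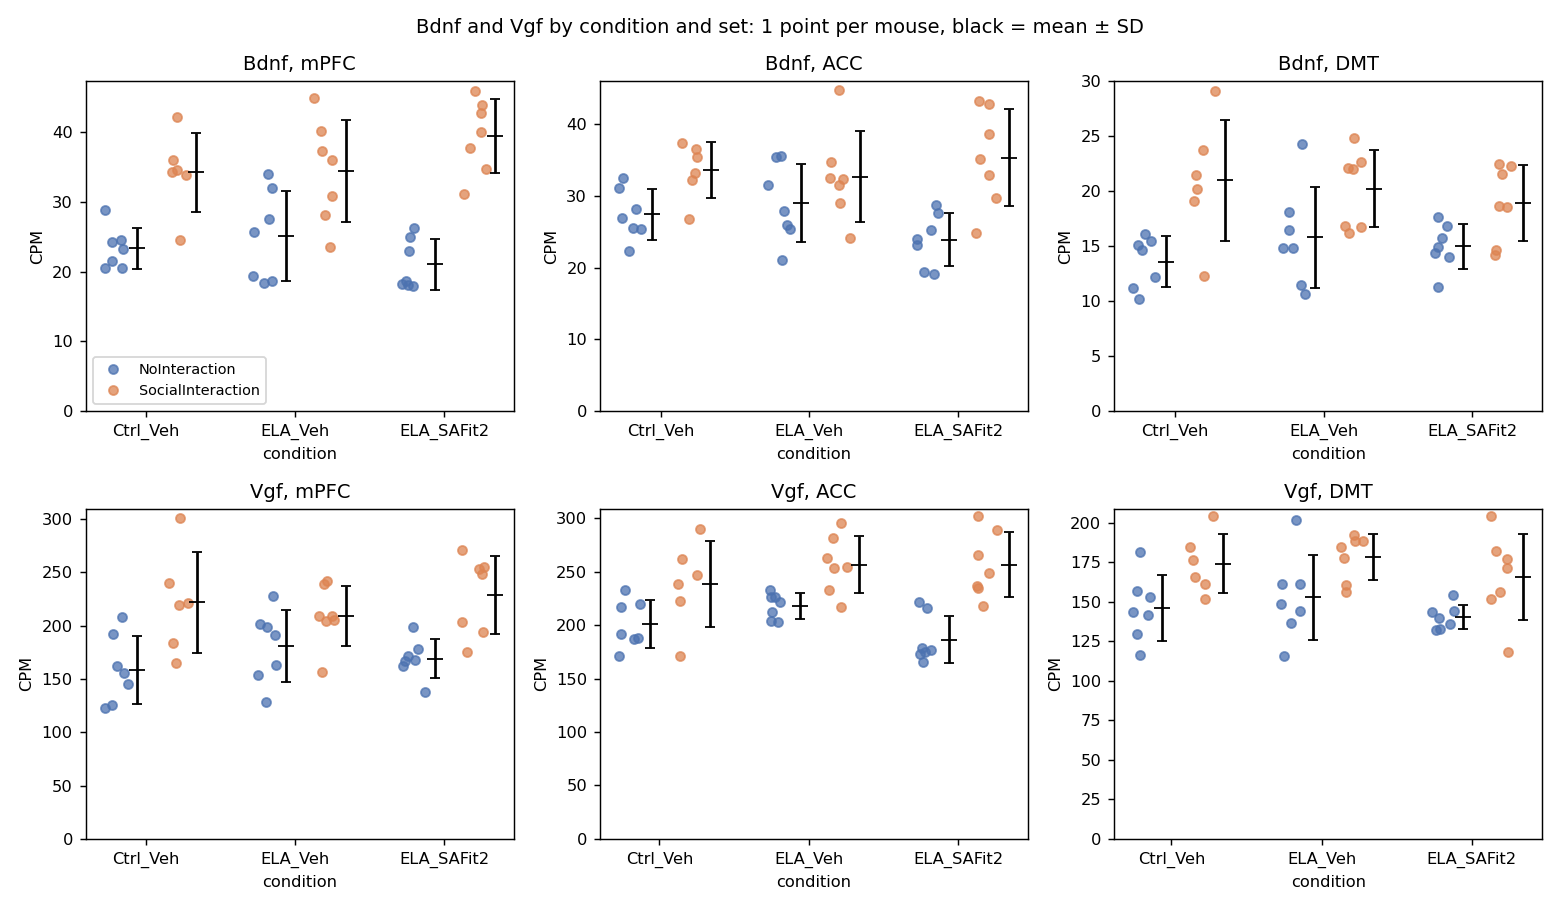
CPM of Bdnf and Vgf in the mPFC, ACC and DMT by condition, 1 point per mouse, NoInteraction in blue and SocialInteraction in orange, with the mean and SD in black. In ELA_SAFit2 mice the mPFC values of Bdnf do not overlap between the sets (18 to 26.3 and 31.2 to 45.9 CPM), while in ELA_Veh mice they do (18.4 to 34 and 23.6 to 44.9 CPM). The share of all genes without overlap is not given.

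Further, the conditions were compared within each set, to ask whether adversity or SAFit2 left a difference in these genes in adult mice. None of the 108 comparisons without social interaction passed in edgeR's test, with 11 at an unadjusted p under 0.05 and a lowest adjusted p of 0.59. Of all genes 0% passed, and 4.36% reached an unadjusted p under 0.05. None of the 108 after social interaction passed, with 3 at an unadjusted p under 0.05 and a lowest adjusted p of 0.45, against 0.000351% and 4.5% of all genes. Over both sets 0 passed and 3 had an unadjusted p under 0.05, against 0.00421% and 4.73%. With the regions of a mouse summed 0 of 18 passed, with 1 at an unadjusted p under 0.05, against 0.00192% passed over all genes. DESeq2 also gave 0 in each set and over both, with 11, 3 and 3 at an unadjusted p under 0.05.

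The differences that came nearest are given as values. In the ACC without interaction Vgf lay between 203 and 233 CPM in ELA_Veh (median 222) and between 165 and 221 in ELA_SAFit2 mice (177), a log2 difference of -0.23 (SE 0.07, unadjusted p = 0.0034, adjusted p = 0.72), and Ctrl_Veh mice lay between 172 and 233 (192). Bdnf there lay between 21 and 35.6 CPM (28) in ELA_Veh and between 19.1 and 28.7 (24.1) in ELA_SAFit2 mice, a difference of -0.28 (SE 0.11, unadjusted p = 0.021, adjusted p = 0.76). In the BLA without interaction Vgf differed by -0.22 in the same comparison (SE 0.074, unadjusted p = 0.0082, adjusted p = 1). For both genes the ELA_SAFit2 mice without interaction were thus the lowest of the 3 conditions in the ACC by their medians.

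After interaction the difference nearest to passing by its unadjusted p was Ntf3 in the DMT, a region where it rested on 3 to 48 reads a library. It lay between 0.118 and 0.483 CPM in Ctrl_Veh (median 0.311), between 0.392 and 1.67 in ELA_Veh (0.503) and between 0.309 and 1.52 in ELA_SAFit2 mice (0.571). ELA_SAFit2 exceeded Ctrl_Veh by 1.21 on the log2 scale (SE 0.42, unadjusted p = 0.0061, adjusted p = 0.8) and ELA_Veh exceeded Ctrl_Veh by 1.08 (SE 0.42, unadjusted p = 0.014, adjusted p = 1). The value of 1.52 CPM was that of mouse 31, whose DMT library stood apart. Without it, the same test gave 0.90 for the first difference (SE 0.41, unadjusted p = 0.035, adjusted p = 0.9), and the second stayed at 1.08. Both comparisons share the Ctrl_Veh mice.

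In the Nacc without interaction Ngfr lay between 1.69 and 73.2 CPM in ELA_Veh (median 5.29) and between 1.46 and 12.6 in ELA_SAFit2 mice (2.67), a log2 difference of -2.01 with an SE of 0.80 (unadjusted p = 0.021, adjusted p = 0.64). The value of 73.2 was that of mouse 69, whose library stood apart and was among the 12 that matched another mouse, and in which cholinergic markers summed to 240 CPM and excitatory markers to 880, the highest and the lowest in the region. Without the libraries that stood apart the difference was -1.23 (SE 0.75, unadjusted p = 0.12, adjusted p = 0.81), and without the 12 mismatched ones -1.22 (SE 0.89, unadjusted p = 0.19, adjusted p = 0.99). With those 12 left out, 0 of the 18 Nacc comparisons in this set had an unadjusted p under 0.05. Across the 18 comparisons of each gene without interaction, log2 differences ran from -0.15 to 0.12 for Ntrk2, from -0.13 to 0.086 for Ntrk3, from -0.23 to 0.19 for Vgf, from -0.50 to 0.39 for Bdnf, from -0.55 to 0.80 for Ntf3 and from -2.01 to 1.40 for Ngfr.

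**Figure D5:**
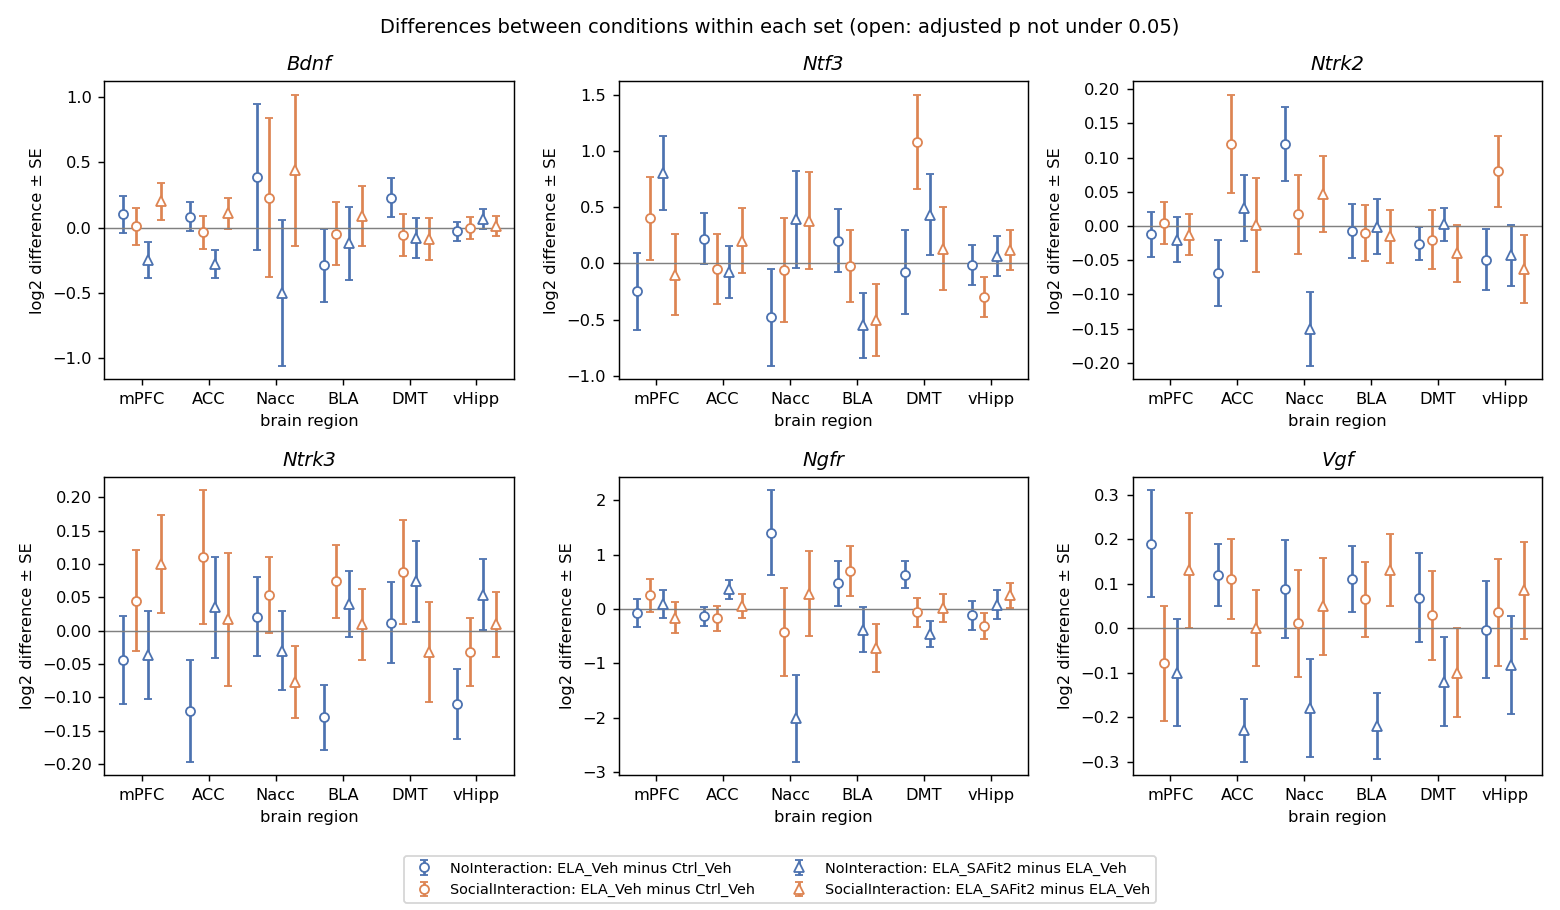
Log2 differences ELA_Veh minus Ctrl_Veh (circles) and ELA_SAFit2 minus ELA_Veh (triangles) for each gene by region, NoInteraction in blue and SocialInteraction in orange, with standard errors; all symbols are open because no adjusted p was under 0.05. The widest differences and error bars are those of Ngfr in the Nacc, down to -2.01, which was -1.23 without mouse 69.

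Other genes of the pathway were read from a list of 25 that holds further ligands and receptors, sortilin-family receptors, the proteases that cut neurotrophin precursors, adaptors of the Trk receptors and partners of p75. After social interaction 3 of 25 tested rose in the mPFC, 3 of 24 in the ACC and 0 elsewhere, and 1 of 24 fell in the DMT. In these regions 7.4%, 4.15% and 1.6% of all genes were called in either direction. The list's median log2 difference was -0.0087 in the mPFC and 0.0065 in the ACC, beside -0.0023 and -0.0034 over all genes tested. The 3 were the same in both cortical regions. Pcsk1, a protease of secretory granules that cuts prohormones, rose by 0.29 in the mPFC (SE 0.045, adjusted p = 3.8e-05), from 54.6 to 78.6 CPM (median 67.6) to 60.2 to 102 (84.4), and by 0.20 in the ACC (SE 0.057, adjusted p = 0.035).

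Sorcs3, a sortilin-family receptor, rose by 0.34 in the mPFC (SE 0.061, adjusted p = 0.00028), from a mean of 66.6 CPM (SD 9.24) to 84.7 (SD 10.8), and by 0.24 in the ACC (SE 0.037, adjusted p = 0.00012). Sh2b1, an adaptor of receptor kinases that include the Trk family, rose by 0.10 in the mPFC (SE 0.018, adjusted p = 0.00021) and by 0.076 in the ACC (SE 0.019, adjusted p = 0.014). Sorcs2, another sortilin-family receptor, fell by 0.13 in the DMT (SE 0.03, adjusted p = 0.012). Summed over regions, the same 3 of 25 rose, where 8.56% of all genes were called in either direction. Pcsk1 rose by 0.17, Sorcs3 by 0.15 and Sh2b1 by 0.05, and the list's median log2 difference was 0.003. In the comparisons of conditions 0 of the list's tests passed.

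Of 8 immediate early genes, which neurons transcribe within minutes of activity, 1 passed in each of the mPFC, ACC, BLA, DMT and vHipp and 0 in the Nacc. In the DMT 7 of the 8 were tested. Of all genes 7.4%, 4.15%, 1.49%, 1.6%, 1.21% and 0% passed in these 6 regions. That gene was Fosb in each case, named here after its values were seen, with a log2 difference of 0.85 in the mPFC (SE 0.14, adjusted p = 0.00013), 0.67 in the ACC (SE 0.12, adjusted p = 0.00062) and 0.81 in the DMT (SE 0.12, adjusted p = 0.00025). Fos in the mPFC lay between 1.8 and 64.9 CPM (median 13.3) without and between 4.36 and 76 (26.2) after interaction, a log2 difference of 0.31 (SE 0.36, adjusted p = 0.71), and Arc had means of 113 (SD 86.9) and 151 CPM (SD 70.7), with 0.42 (SE 0.30, adjusted p = 0.49). All 8 were above 0 in the mPFC, ACC, BLA and vHipp, with list medians of 0.31, 0.29, 0.20 and 0.19. The 7 tested in the DMT were also all above 0 (median 0.21). In the Nacc 1 of 8 was above 0 (median -0.16), or 3 of 8 (median -0.005) without its 12 mismatched libraries.

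Marker lists were compared between the sets in the same fit. Fibroblast and meningeal markers had median log2 differences of -0.27 in the mPFC, -0.31 in the ACC and -0.29 in the BLA over 5 genes, with 0 called in each. Olfactory bulb markers were at -0.94 in the ACC and -0.57 in the Nacc, with 0 of 4 called in each. Of 2 markers of oligodendrocyte precursors 1 was called higher in each of the mPFC, ACC and BLA, and in the ACC 1 of 5 astrocyte and 1 of 4 microglial markers were called lower. In the mPFC, ACC and BLA 7.4%, 4.15% and 1.49% of all genes were called in either direction. Excitatory markers, which Bdnf and Vgf followed, summed to 4210 to 5896 CPM (median 4944) in the mPFC without interaction and to 4054 to 6086 (4920) after it. The part of these lists in the results was not tested.

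Members were also compared with each other inside the groups of mice, over 90 relations (15 pairs in 6 regions), of which 29 had an adjusted p under 0.05. No share over pairs of other genes is given here, and both genes of a pair share a library's scaling and tissue mixture. Bdnf and Vgf, the ligand and the precursor, moved together in the mPFC (r = 0.67, rho = 0.62, permutation p = 1e-05 and 2e-05, adjusted 3e-04 and 9e-04), with 0.66 without the 2 farthest mice and 0.76 and 0.58 in the 2 sets. They did so in the ACC (r = 0.57, rho = 0.64, permutation p = 7e-05 and 1e-05, adjusted 0.001 and 9e-04; 0.56 without the 2 farthest, 0.66 and 0.52 in the sets). Bdnf and its receptor gene Ntrk2 ran opposite to each other in the vHipp (r = -0.63, rho = -0.62, permutation p = 1e-05 and 3e-05, adjusted 3e-04 and 9e-04; -0.56 without the 2 farthest, -0.48 and -0.75 in the sets). In the Nacc the same pair ran together (r = 0.60, rho = 0.58, permutation p = 2e-05 and 4e-05, adjusted 0.00045 and 9e-04; 0.50 without the 2 farthest, 0.49 and 0.71 in the sets, 0.60 over the 29 matched libraries).

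Ntrk2 and Ntrk3 in the ACC had the highest r of the family, 0.82 with a rho of 0.56 (permutation p = 1e-05 and 0.00029, adjusted 3e-04 and 0.0033; 0.68 and 0.88 in the sets), which fell to 0.56 without the 2 farthest libraries.

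The same mouse could be followed between regions, with the Nacc left out, in 60 relations, of which 7 had an adjusted p under 0.05. No share over other genes is given here. A mouse high in Bdnf in the mPFC was high in the ACC (r = 0.68, rho = 0.70, permutation p = 1e-05, adjusted 6e-04), with 0.63 without the 2 farthest mice and 0.73 and 0.63 in the sets. The same held for Ntrk3 (r = 0.55, rho = 0.54, permutation p = 1e-04 and 3e-04, adjusted 0.0022 and 0.006; 0.52 without the 2 farthest, 0.57 and 0.55 in the sets). Bdnf in the BLA and DMT also moved together (r = 0.52, rho = 0.53, permutation p = 0.00056 and 0.00052, adjusted 0.0084 and 0.0078; 0.43 without the 2 farthest, 0.65 and 0.35 in the sets). Not all relations were of 1 sign, and Ntrk2 in the BLA ran opposite to Ntrk2 in the DMT of the same mouse (r = -0.47, rho = -0.57, permutation p = 0.0032 and 0.00015, adjusted 0.028 and 0.0045; -0.44 without the 2 farthest, -0.52 and -0.53 in the sets).

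Finally, the genes with the pattern most like that of each member were listed, as a description, from Pearson's r of deviations inside groups over the 41 libraries of a region, averaged over the 6 regions. For Bdnf they were Enc1 (0.70), Nrn1 (0.67) and Nptxr (0.65), for Vgf Cdk5r2 (0.64), Ccdc85b (0.63) and Mapk8ip1 (0.63), and for Ntf3 Gpc4 (0.54), Hspa2 (0.47) and Plk5 (0.45). For the receptors they were Map3k9 (0.59), Mpdz (0.57) and Arhgef28 (0.57) with Ntrk2, Smg1 (0.57), Gabrb1 (0.56) and Nktr (0.54) with Ntrk3, and Clic4 (0.56), Rassf4 (0.50) and Ptgr2 (0.50) with Ngfr. These means hide wide ranges. For Mpdz and Ntrk2 the r ran from -0.09 to 0.93 between regions, whereas for Enc1 and Bdnf it ran from 0.54 to 0.84.

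Over the 36 group means, where differences between regions dominate, the nearest genes were others. They were Atp6v1a (0.98), Kcnj6 (0.97) and Ppm1e (0.97) for Bdnf, Ppfia2 (0.97), Slc39a6 (0.97) and Rb1 (0.97) for Ntf3, and Taf2 (0.96), Epg5 (0.94) and Pde4d (0.94) for Ntrk2. For Ntrk3 they were Itsn2 (0.99) and Prkca (0.98), for Ngfr Nkx2-1 (0.97), Rtl9 (0.96) and Zdhhc20 (0.96), and for Vgf Sft2d1 (0.93), Tspyl5 (0.91) and Plcxd1 (0.91). The group means of a region share its libraries' tissue mixture.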

How the data were processed

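The deposited table holds estimated counts per gene, which the authors made from stranded paired-end reads of poly-A RNA. The table's name gives salmon, and the submitters' processing notes name STAR, DESeq2 and the build GRCm39, without versions or order. The values are scaled for neither depth nor gene length, and 12.12% were not whole, so all were rounded. Of 56691 gene identifiers 52073 matched GENCODE M21 (GRCm38), which gave gene types and positions, 978 took their type from a RefSeq symbol, and 3640 stayed untyped and untested.

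A protein-coding gene entered a fit when its counts summed to 100 or more and 6 or more libraries held one. Genes were tested with edgeR 4.0.16 in R 4.3.3 (TMM scaling, quasi-likelihood test, Benjamini-Hochberg adjustment over all genes of the fit, threshold 0.05). Every region was fitted alone, with 41 libraries in 6 groups, or 21 for the conditions without social interaction. Levels of regions were fitted over all libraries in 36 groups. Standard errors were derived from the F statistic. DESeq2 1.42.0, its size factors, no count filter, blocks, and libraries left out were alternatives, and leaving out the 3 libraries that stood apart, and the Nacc relations without mismatched libraries, were added after the values were seen. CPM used TMM factors over all libraries, with a pseudocount of 0.1 CPM on the log2 scale.

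The mPFC social interaction test was tried on simulated data of 15812 genes, 200 of them shifted by a log2 of 0.4, and found 94.5% of these, with 11 false calls. The shifted genes were drawn only from genes with more reads than Ntf3 (mean 39 a library) and Ngfr (mean 30.4) had in the mPFC. The share found therefore does not cover these genes. Simulated libraries were independent draws, without runs of mice or libraries that stood apart. A library stood apart when its median absolute log2 deviation from its group, over 11624 genes, exceeded 2 times its region's median. The mouse behind each library was checked over 60 genes; in simulated exchanges 5 of 5 were found and 0 others. Same-numbered libraries come from the same mouse, per the labels, which pairs regions.

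The 6 genes, the lists and the rules for naming genes were chosen with earlier results of these data known. The rule named the 6 members, up to 3 called pathway genes a comparison by smallest p, Fos and Arc, and the 3 genes most like each member. Some genes of the lists and 1 of the most similar genes are not reported here by name. Other steps used SciPy 1.17.1, pandas 2.3.3, NumPy 2.4.6 and Matplotlib 3.10.9 under Python 3.11.15. The counting error of a value near 1 read is as large as the value.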

Additional observations from a re-analysis of the deposited data

Results flagged for a closer look

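In each group of 4 to 10 mice, the highest or lowest value of a member was marked when its gap to the rest was large for the group's range by Dixon's criterion. Of 216 combinations of member and group 12 were marked, and chance alone marks about 1 in 20.

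Receptor genes made up most of them. In the ACC of Ctrl_Veh SocialInteraction mice, mouse 89, whose library stood apart over all genes, had 475 CPM of Ntrk2 (others 758 to 814) and 156 of Ntrk3 (others 248 to 304). In the ACC of ELA_Veh NoInteraction mice, mouse 69 had 579 CPM of Ntrk2 (others 706 to 804) and 173 of Ntrk3 (others 239 to 276). Ntrk3 was also low in the DMT of ELA_SAFit2 SocialInteraction mouse 31, at 91.8 CPM (others 125 to 143), a library that stood apart as well, and high in the BLA of ELA_Veh SocialInteraction mouse 59, at 256 (others 219 to 231).

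Ngfr was low in the ACC of ELA_Veh NoInteraction mouse 43, at 0.564 CPM (others 0.898 to 1.12), and in the vHipp of ELA_SAFit2 SocialInteraction mouse 63, at 1.19 (others 1.52 to 1.79). It was high in the BLA of ELA_SAFit2 SocialInteraction mouse 23, at 16.6 CPM (others 2.33 to 4.42). Ntf3 was high in the DMT of ELA_Veh SocialInteraction mouse 61, at 1.67 CPM (others 0.392 to 0.735), and in the Nacc of 1 ELA_Veh NoInteraction mouse, at 0.359 (others 0.166 to 0.236). Vgf was low in the mPFC of 1 ELA_Veh SocialInteraction mouse, at 156 CPM (others 204 to 242).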

How the results depend on the processing

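Of 46 alternative counts of calls 45 stayed within 1.5 times the main count, and the calls inside single conditions went from 4 to 9 of 108 with DESeq2. Most of the 46 set 0 calls beside 0, which was scored as unchanged. Where libraries were left out, regions that were not refitted kept their main values in the count. Of 316 single values under an alternative, 307 kept their direction and side of the threshold. Without the mismatched Nacc libraries, Ntf3 in the Nacc turned from -0.075 to 0.10 after social interaction, Ntrk3 in the Nacc and BLA lost its regional call (0.052 and -0.043), and without the Nacc the summed Ngfr turned from 0.15 to -0.14 and Ntrk3 gained a call (0.077). DESeq2's size factors also ended the regional call of Ntrk3 in the BLA (-0.046, adjusted p = 0.059), and without a count filter Ntrk2 there gained one (-0.041, adjusted p = 0.018). The gains of Bdnf in the vHipp (0.15) with DESeq2 and Ntrk2 in the ACC (0.10) without the library apart stand above. The cause of these shifts was not tested. With the mouse as a replicate block, which pairs the regions of a mouse, 34 of 36 regional tests and 0 of 36 differences of response passed, as without it, and the lowest adjusted p of the latter was 0.078 (Ntrk3 in the mPFC). Leaving out each mouse in turn, as a difference of means, moved Bdnf between 0.62 and 0.67 in the mPFC, 0.31 and 0.37 in the ACC and 0.40 and 0.48 in the DMT, and Vgf between 0.35 and 0.40, 0.29 and 0.34 and 0.22 and 0.27, and 5 of 36 values, none of them called, changed sign. Comparisons of conditions gave 0 calls under every alternative run. Ntf3 outside the vHipp and Ngfr outside the Nacc and BLA rest on few reads, 1 to 100 and 10 to 86 a library.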
